A study of Caenorhabditis elegans with 91 samples.

Results

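Small RNA reads from 7 loci of the nematode Caenorhabditis elegans were followed through animals that had the double-stranded RNA binding protein RDE-4 everywhere, nowhere, or from a transgene driven in neurons. The loci were Y47H10A.5, F56D6.16, F56D6.17, H09G03.1, F58F9.1, F45B8.5 and linc-121 (a locus on clone Y57G11C that the count tables list under its sequence name), which were 7 of the 21965 genes in the small RNA tables. They were chosen by their small RNA reads, near 0 in rde-4 mutants and high in wild-type N2 animals, so the contrast of rde-4 with N2 at 20 °C is given here as a description. In current RefSeq gene records (WBcel235, used for names and neighbours alone) Y47H10A.5 on chromosome I, F58F9.1 on chromosome IV and F45B8.5 on chromosome X are protein-coding genes. F56D6.16 and F56D6.17 are adjacent pseudogenes on chromosome IV. H09G03.1 on chromosome III and linc-121 on chromosome IV are long non-coding RNA genes. All 7 loci were found in these records, and none of them has a described function that could be given here.

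RDE-4 binds double-stranded RNA and hands it to the Dicer enzyme DCR-1, which makes primary small interfering RNAs (siRNAs). In the endogenous pathway named after the Argonaute ERGO-1, an RNA-dependent RNA polymerase, RRF-3, makes the double-stranded RNA from transcripts of pseudogenes, non-coding genes and recently duplicated genes. Primary siRNAs then guide other polymerases to make a second, far more abundant class of siRNAs against the same transcripts. Transport of double-stranded RNA between tissues, including into the germline, needs the channel protein SID-1.

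The study asked whether RDE-4 in neurons changes small RNAs in the animals that carry it and in their descendants. Carriers of pigSi3 (strain BFF 16) had the rde-4(ne299) mutation and the transgene pigSi3, which holds cb-unc-119(+) together with the construct Psng-1::rde-4:SL2:yfp, in which the pan-neuronal promoter of sng-1 drives rde-4. Carriers of the extrachromosomal array pigEx9 (BFF 14), which combines Psng-1::rde-4:SL2:yfp with the muscle marker Pmyo-3::Mcherry, and of the array pigEx10 (BFF 15), which combines Prgef-1::rde-4:SL2:yfp from a second pan-neuronal promoter with Punc-122::gfp, had the same mutation and are called P0. The F1 and F3 groups were rde-4(ne299) animals (BFF 12) descended from those carriers, and pigSi3 F3 were rde-4 mutant F3 descendants of heterozygotes of BFF 16. The reference was the rde-4(ne299) mutant BFF 12, and N2 Bristol was the wild type. Animals were adults of 1 day, grown on OP-50 bacteria at 20 °C unless 25 °C is given. Neurons came from strains that all carried otIs356[rab-3p(prom1)::2xNLS::TagRFP], a red nuclear marker of neurons, as WT (BFF 30), as rde-4(ne299) (BFF 31) or as rde-4(ne299) with pigSi3 (BFF 32). Gonads came from rde-4, pigSi3 and pigSi3 F3 animals, and from sid-1(qt9) rde-4(ne299) double mutants with pigSi3 (BFF 33) or without it (BFF 13). Small RNA libraries numbered 64 in 20 groups and mRNA libraries 27 in 8 groups, with 11 libraries for whole rde-4 animals at 20 °C, 6 for pigEx9 P0 and 2 to 4 for every other group. Each array was seen in 1 strain, and pigSi3 in the strains BFF 16, BFF 32 and BFF 33. Nothing in the labels tells separate cultures from repeat libraries, so p-values measure only the spread between these samples, which may be technical.

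Values are counts per 1000000 gene reads on a scale common to the libraries of a tissue (CPM), and gene lengths were not taken into account, so a level is compared between groups and never between loci. Whole-animal libraries held 918317 to 31077625 gene counts, apart from pigEx9 F1 replicate 3 with 1792, which was left out. Neuron small RNA libraries held 735328 to 2530023 gene counts, gonad small RNA libraries 1841973 to 49953667, neuron mRNA libraries 5972135 to 15765852 and gonad mRNA libraries 2746062 to 36765116. The mRNA of the targeted gene rde-4 stood at 287 to 319 CPM in pigSi3 neurons, 1.97 to 3.83 CPM in rde-4 neurons and 9.02 to 26.6 CPM in WT neurons. In gonads rde-4 mRNA gave no such separation, at 30.9 to 36.2 CPM in pigSi3, 21.9 to 29.0 CPM in pigSi3 F3, 29.3 to 32.4 CPM in sid-1 rde-4 pigSi3, 29.6 to 40.9 CPM in sid-1 rde-4 and 24.1 to 37.8 CPM in rde-4. Small RNA reads on rde-4 itself, a gene present in the arrays, stood at 3107 to 8060 CPM in pigEx9 P0, 2545 to 4094 CPM in pigEx10 P0, 87.8 to 90.1 CPM in pigSi3 animals and 72.0 to 241 CPM in rde-4 animals. In the neuron mRNA libraries the 10 neuronal markers summed to 6211 to 33076 CPM and the 4 muscle markers to 6068 to 24890 CPM. In gonad mRNA, the 6 germline markers summed to 3750 to 9487 CPM. All genes of the 7 marker lists were found.

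In whole animals at 20 °C the reads of 6 of the loci were close to absent from rde-4 mutants and plentiful in N2. Y47H10A.5 ranged over 11 rde-4 libraries from 0.237 to 2.21 CPM (median 0.997), against 867, 1104 and 999 CPM in N2. F56D6.16 ranged from 0 to 0.498 CPM in rde-4 (median 0.165), against 639, 493 and 558 CPM in N2. Its neighbour F56D6.17 ranged from 0 to 0.655 CPM in rde-4 (median 0.297), against 329, 296 and 302 CPM in N2. H09G03.1 ranged from 0 to 0.997 CPM in rde-4 (median 0.553), against 372, 322 and 342 CPM in N2. The N2 libraries lay close together, as in the mean of 989.9 ± 119 CPM for Y47H10A.5 (SD, n = 3). F45B8.5 had no read in 9 of 11 rde-4 libraries and at most 0.198 CPM in the rest, against 25.5, 26.6 and 35.2 CPM in N2. linc-121 had 0 counts in all 11 rde-4 libraries and 18.01, 9.22 and 11.57 CPM in N2.

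The ratio of the N2 mean to the rde-4 mean was 3719 for F56D6.16, 1074 for F45B8.5, 1039 for F56D6.17, 911 for Y47H10A.5 and 606 for H09G03.1. Those were the 5 highest ratios among the 5912 genes with at least 20 CPM in N2, of which 21 had a ratio of 100 or more. The next were W04B5.1 with 588, Y17D7B.4 with 412, Y43F8B.9 with 402.6, C36A4.11 with 370 and F19G12.4 with 231. linc-121, below 20 CPM in N2, was at least 479.6-fold higher in N2 than the level that 3 counts over all rde-4 libraries would give. F58F9.1 went against the description in whole animals. It stood at 0.297 to 1.25 CPM in rde-4 (median 0.615) and at 3.05, 1.85 and 3.24 CPM in N2, a ratio of 4.24, and its place among the loci rests on neurons, described further on. For all 7 loci every rde-4 library lay below every N2 library, as for 10.1% of all genes, and nothing is read from that count because this contrast chose the loci. Together the loci took 0.000179 to 0.000429% of gene reads in rde-4 and 0.194 to 0.208% in N2.

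**Figure D1:**
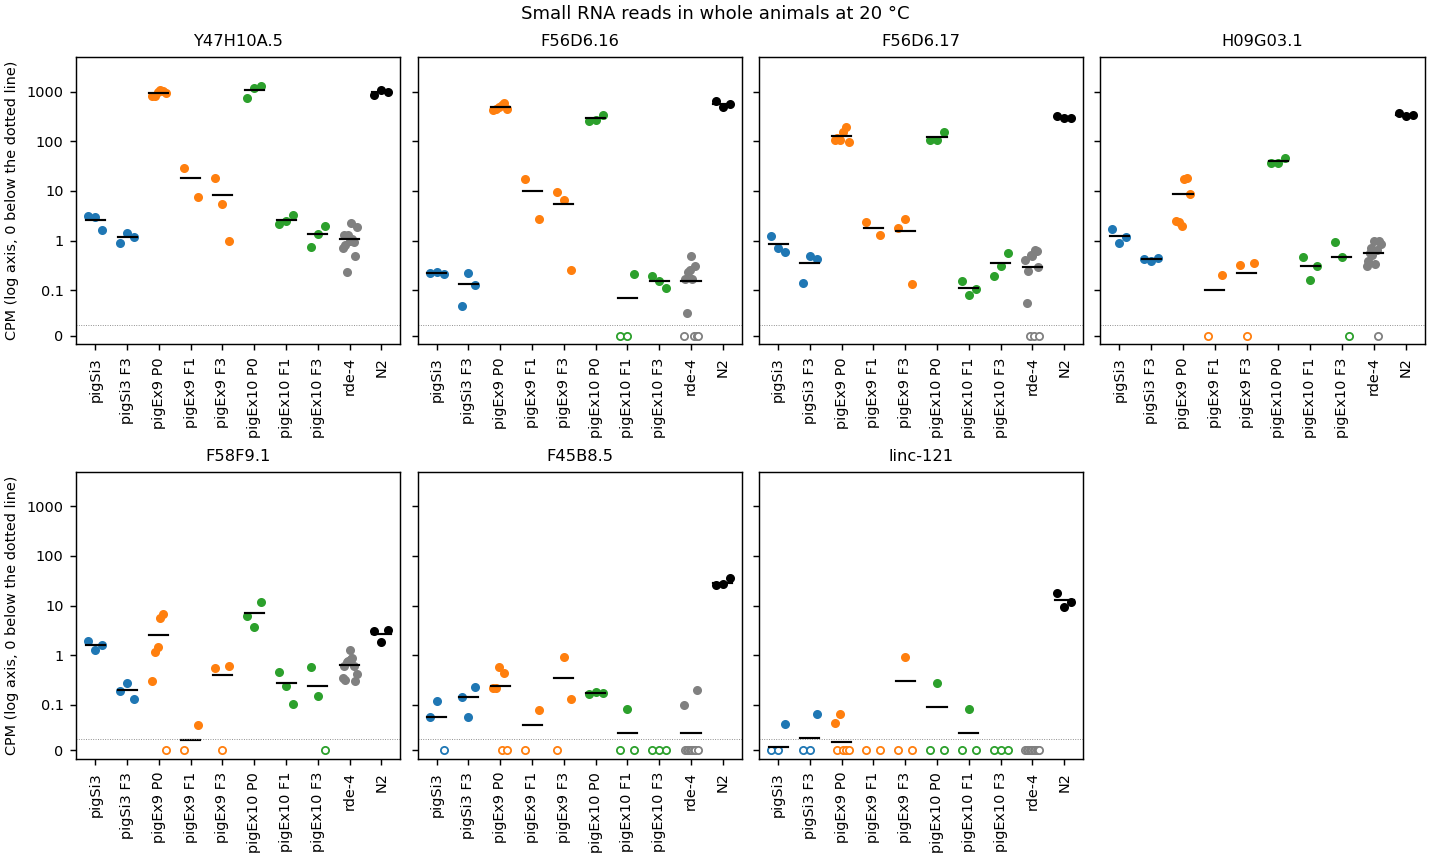
Small RNA reads of each locus in whole animals at 20 °C, in CPM on a log axis, with 1 point per library, open points below the dotted line for libraries at 0, and bars for group means. For Y47H10A.5 both P0 groups sit near N2, and for F56D6.16 pigEx9 P0 does, with pigEx10 P0 at 51.3% of the N2 mean. Both P0 groups lie between rde-4 and N2 for H09G03.1, and far below N2 for F45B8.5 and linc-121.

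In carriers of the arrays that put rde-4 in neurons, reads of 3 loci stood at 39.9 to 109% of the N2 mean in whole animals. The N2 libraries are listed apart from the array libraries, so group and listing set cannot be told apart in any share of N2 given for the arrays. Y47H10A.5 had 814, 830.2, 981, 1088, 1056 and 931 CPM in pigEx9 P0 and 742, 1185 and 1318 CPM in pigEx10 P0, which is 96.0 and 109% of the N2 mean. F56D6.16 had 432, 452, 483, 552, 595 and 448 CPM in pigEx9 P0, which is 87.6% of N2, and 261, 265 and 341 CPM in pigEx10 P0, which is 51.3%. F56D6.17 had 104, 118, 107, 155, 194 and 95.5 CPM in pigEx9 P0 and 109, 108 and 153 CPM in pigEx10 P0, which is 41.8 and 39.9% of N2. Every P0 library of these 3 loci was above every rde-4 library. In pigEx9 P0 the adjacent pseudogenes stood at unlike shares of N2.

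H09G03.1 came back in part. It had 2.50, 2.39, 1.99, 17.8, 18.1 and 8.73 CPM in pigEx9 P0, a mean of 2.48% of N2, and 35.8, 36.5 and 45.9 CPM in pigEx10 P0, or 11.4% of N2. The pigEx9 P0 libraries fall into those listed with rde-4 replicates 4 and 5, whose H09G03.1 mean was 2.29 ± 0.269 CPM, and those listed with rde-4 replicates 6 to 8, whose mean was 14.8 ± 5.30 CPM (SD, n = 3 each). Reads on rde-4 itself averaged 3166 ± 50.7 CPM in the libraries listed with replicates 4 and 5 and 6939 ± 1113 CPM in the others. The former held 21980467 to 29314842 gene counts, with 23.7 to 25.1% of reads without a gene. The latter held 2569735 to 5429206 gene counts, with 39.0 to 56.4% of reads without a gene. The part of these differences in the H09G03.1 values was not tested. F58F9.1 had 0.301, 1.13, 1.47, 5.72, 6.88 and 0 CPM in pigEx9 P0 and 6.08, 3.66 and 11.57 CPM in pigEx10 P0. F45B8.5 and linc-121 stayed far below N2. F45B8.5 had 0 to 0.586 CPM in pigEx9 P0 and 0.162 to 0.179 CPM in pigEx10 P0, and linc-121 had 0 to 0.0651 CPM in pigEx9 P0 and 0 to 0.268 CPM in pigEx10 P0. Those are 0.830, 0.591, 0.139 and 0.690% of the N2 means, and both loci fell under the count filter, so neither was tested.

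All rde-4 libraries of whole animals at 20 °C were among those that chose the loci as low, so the counts and p-values against them, here and in the descendants, can favour the loci over all genes. By edgeR's quasi-likelihood test with Benjamini-Hochberg adjustment over all genes, 4 of the 5 loci tested rose in pigEx9 P0 over rde-4, where 1.84% of all genes did. The same 4 did not overlap with rde-4, where 1.02% of all genes lay wholly above. The log2 differences were 9.63 ± 0.810 for Y47H10A.5 (SE, adjusted p = 1.52e-05), 11.08 ± 1.03 for F56D6.16 (adjusted p = 3.89e-05), 8.71 ± 0.575 for F56D6.17 (adjusted p = 6.90e-07) and 3.81 ± 0.456 for H09G03.1. The H09G03.1 difference was 1.94 within the libraries listed with rde-4 replicates 4 and 5 and 4.48 within the others. For F58F9.1 the edgeR log2 difference was 1.498 ± 0.714, which was not called. It was 1.94, and called, once P0 replicate 6, the library at 0, was left out. H09G03.1 and F58F9.1 passed the count filter only through pigEx9 P0, so no p is given for them and the count says little about them. In pigEx10 P0, 5 of 5 loci rose by the same edgeR test, where 1.28% of all genes did, and all 5 lay wholly above the rde-4 libraries of their set, where 10.4% of all genes did. Their log2 differences were 10.14 ± 0.369 for Y47H10A.5 (edgeR adjusted p = 7.18e-09), 11.38 ± 0.369 for F56D6.16, 8.49 ± 0.335 for F56D6.17, 5.91 ± 0.582 for H09G03.1 and 3.98 ± 0.675 for F58F9.1. All but Y47H10A.5 passed the count filter only through pigEx10 P0, where they are high. No p is given for them, and the count of 5 of 5 was partly set by the filter. The F58F9.1 call was lost without rde-4 replicate 10 (edgeR log2 difference 3.68). RNA from whole animals cannot tell fewer cells of a type from less RNA per cell, here and in the other groups.

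**Figure D2:**
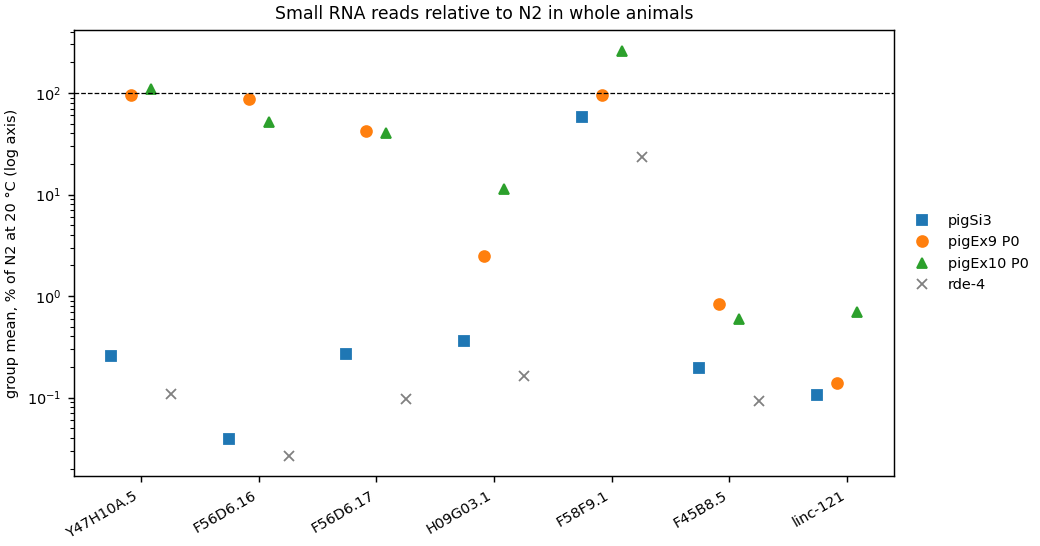
Group means of small RNA reads as a percentage of the N2 mean at 20 °C (dashed line at 100%), on a log axis, for pigSi3, pigEx9 P0, pigEx10 P0 and rde-4; a mean of 0 is not drawn. For Y47H10A.5 the array groups stand at 96.0 and 109% and pigSi3 at 0.259%, and for F45B8.5 all 3 transgene groups stay under 1%. The arrays are listed in other sets than N2 and pigSi3.

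Descendants that had lost the array showed few reads of these loci. Y47H10A.5 had 29.1 and 7.49 CPM in pigEx9 F1, then 17.9, 5.51 and 0.997 CPM in pigEx9 F3, with the rde-4 range of 0.237 to 2.21 CPM given above. F56D6.16 had 17.6 and 2.68 CPM in F1 and 9.45, 6.43 and 0.260 CPM in F3, and F56D6.17 had 2.31 and 1.30 CPM in F1 and 1.77, 2.76 and 0.130 CPM in F3. All F1 libraries of these 3 loci, and F3 replicates 1 and 2, were above every rde-4 library, while F3 replicate 3 was not. H09G03.1 had 0 and 0.197 CPM in F1 and 0.326, 0 and 0.347 CPM in F3, and F58F9.1 had 0 and 0.0394 CPM in F1. Against rde-4 replicates 4 to 8, which entered the fit, 3 of 5 loci in F1 lay wholly above and these 2 wholly below, where 9.61 and 7.75% of all genes did. F58F9.1 had 0.559, 0 and 0.607 CPM in F3, and it was the 1 locus of 5 wholly below these rde-4 libraries, where 2.07% of all genes were, while its edgeR log2 difference with listing set as a term was 0.53 ± 1.03 (adjusted p = 1). F3 replicate 2 rests on few reads, 6 on Y47H10A.5 and 7 on F56D6.16. Reads on the rde-4 gene itself stood at 253 and 251 CPM in the F1 libraries, at 163, 129 and 126 CPM in the F3 libraries, and at 72.0 to 106 CPM in the rde-4 libraries of the same sets. Their part in the result was not tested.

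By edgeR with listing set as a term, 0 of the 5 loci tested passed in pigEx9 F1, where 0.0360% of all genes were called higher, and 0 in pigEx9 F3, where 0.0180% were. H09G03.1 and F58F9.1 held 5 and 1 counts over the F1 libraries, so their tests there say little. At an unadjusted p under 0.05 there were Y47H10A.5, F56D6.16 and F56D6.17 in F1, and the first 2 of them in F3. The share of all genes at that level was not computed, so this is a description. In F1 the log2 differences were 4.02 ± 1.03 for Y47H10A.5 (unadjusted p = 0.00215, edgeR adjusted p = 0.337), 5.45 ± 1.58 for F56D6.16 (unadjusted p = 0.00482, edgeR adjusted p = 0.425) and 2.64 ± 1.06 for F56D6.17 (edgeR adjusted p = 0.634). In F3 they were 3.04 ± 1.04 for Y47H10A.5 (edgeR adjusted p = 0.712) and 4.54 ± 1.64 for F56D6.16 (edgeR adjusted p = 0.811). With DESeq2's Wald test 2 loci passed in F1, Y47H10A.5 (adjusted p = 0.00402) and F56D6.16 (adjusted p = 0.00655), and 1 in F3, F56D6.16 (adjusted p = 0.0430). With all 11 rde-4 libraries and no set term in edgeR, both loci passed in F1 (adjusted p = 0.000596 each) and in F3 (adjusted p = 0.00807 for Y47H10A.5 and 0.00343 for F56D6.16). Calls over all genes also changed with the model. They went from 12 in F1 to as many as 273, and from 3 in F3 to as many as 180. Both maxima came from the libraries listed with rde-4 replicates 4 and 5 alone. Whether these loci passed in the descendants thus changed with the model, and the calls are not shown to be particular to them.

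Descendants of pigEx10 carriers had few reads of all 7 loci. Y47H10A.5 had 2.15, 2.42 and 3.20 CPM in pigEx10 F1 and 0.757, 1.36 and 2.00 CPM in pigEx10 F3, and no other locus averaged over 0.467 CPM in either. The F1 libraries lay above rde-4 replicates 9 to 11, at 0.922, 0.495 and 1.88 CPM, where 5.26% of all genes did, and the F3 libraries overlapped them. Reads on rde-4 itself were 263, 254 and 345 CPM in F1, against 198, 202 and 241 CPM in those rde-4 libraries, and their part in the result was not tested. By edgeR 0 of the 5 loci tested were called in F1 or F3, where 0.151 and 0.178% of all genes were called higher. DESeq2 called 0 as well, and at an unadjusted p under 0.05 the edgeR fit held only Y47H10A.5 in F1 (log2 difference 1.45 ± 0.539, unadjusted p = 0.0201, adjusted p = 0.635). The other tested loci held at most 8 counts over all libraries of F1 or of F3. They passed the count filter through pigEx10 P0, so the absence of calls says little about them. Y47H10A.5 in pigSi3 F3 had 0.889, 1.44 and 1.18 CPM, with an edgeR log2 difference from all 11 rde-4 libraries of 0.12 ± 0.396 (adjusted p = 0.925). It was the only locus with enough reads for a test there, and 0.0172% of all genes were called higher.

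Whole animals with pigSi3 had far fewer reads than those with the arrays, which are listed in other sets. Y47H10A.5 had 3.104, 2.98 and 1.62 CPM in pigSi3, against 0.698, 1.32 and 0.8288 CPM in the rde-4 libraries listed with it. F56D6.17 had 1.22, 0.701 and 0.582 CPM in pigSi3, against 0.399, 0.0549 and 0.242 CPM in rde-4. H09G03.1 had 1.72, 0.877 and 1.16 CPM in pigSi3, against 0.299, 0.384 and 0.553 CPM in rde-4, and F58F9.1 had 1.88, 1.29 and 1.58 CPM in pigSi3, against 0.349, 0.604 and 0.311 CPM in rde-4. Each pigSi3 library of these loci, and of F56D6.16, was above each of these rde-4 libraries, so 5 of 7 loci did not overlap, as did not 13.4% of all genes in that direction. As a share of the N2 mean the pigSi3 means were 0.259% for Y47H10A.5, 0.0392% for F56D6.16, 0.270% for F56D6.17, 0.363% for H09G03.1 and 58.3% for F58F9.1.

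By edgeR 4 of the 7 loci rose in pigSi3 over rde-4, where 1.92% of all genes did. The log2 differences were 1.92 ± 0.343 for F58F9.1 (edgeR adjusted p = 0.00840), 1.51 ± 0.293 for H09G03.1 (edgeR adjusted p = 0.0127), 1.41 ± 0.311 for Y47H10A.5 (edgeR adjusted p = 0.0239) and 1.73 ± 0.430 for F56D6.17 (edgeR adjusted p = 0.0397). F56D6.16 had 4, 4 and 5 counts in pigSi3 and 4 in all of rde-4 replicates 1 to 3, with an edgeR log2 difference of 1.76 ± 0.694 and an adjusted p of 0.187. It passed the count filter only through the N2 libraries in the same fit. These rde-4 libraries were among those by which the loci were chosen for low values, so they can stand too low. Against rde-4 replicates 4 to 11, 0 of the 4 loci passed: the edgeR log2 differences were 1.15 for F58F9.1 (adjusted p = 0.0565), 1.14 for Y47H10A.5 (adjusted p = 0.0790), 1.29 for F56D6.17 (adjusted p = 0.144) and 0.93 for H09G03.1 (adjusted p = 0.161). Leaving out any 1 of rde-4 replicates 1 to 3, or pigSi3 replicate 1 or 2, left 2 calls, of which F58F9.1 was 1 each time.

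In isolated neurons the loci were again low in rde-4 and high in WT. The choice of F58F9.1 rests on these libraries, so its WT and rde-4 values are a description, while the other loci had met the rule in whole animals. Y47H10A.5 had 26.4 and 14.9 CPM in rde-4 neurons, against 943 and 725 CPM in WT neurons. F56D6.16 had 7.85 and 5.98 CPM in rde-4 neurons, against 686 and 743 CPM in WT neurons, and F56D6.17 had 6.42 and 2.99 CPM, against 226 and 211 CPM in WT. H09G03.1 had 4.28 and 4.98 CPM in rde-4 neurons and 644 and 569 CPM in WT neurons. F58F9.1, scarce in whole animals, had 0 counts in both rde-4 neuron libraries and 258 and 197 CPM in WT neurons. F45B8.5 had 0 counts in both rde-4 libraries and 28.3 and 8.95 CPM in WT neurons. linc-121 had 1 count in the rde-4 libraries and 5 and 4 counts in the WT libraries, too few for a test.

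As log2 of WT over rde-4, the differences in neurons were 5.29 ± 0.302 for Y47H10A.5, 6.65 ± 0.284 for F56D6.16 and 5.44 ± 0.313 for F56D6.17, with edgeR adjusted p from 2.87e-11 to 3.44e-09. For H09G03.1 the difference was 7.02 ± 0.397. F58F9.1 was at least 182-fold higher in WT neurons than the level of 3 counts over the rde-4 libraries, and F45B8.5 at least 14.9-fold higher. No p is given for H09G03.1, F58F9.1 or F45B8.5. F58F9.1 was chosen on these values, and H09G03.1 and F45B8.5 passed the count filter only through their WT reads. Counting them, 6 of 6 loci were called higher in WT neurons, where 1.47% of all genes were, and lay wholly above rde-4, where 22.6% of all genes did, so these counts are not evidence about the loci. With 2 libraries a group the spread is poorly known.

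Of these loci, F58F9.1 alone was near the WT level in pigSi3 neurons. It had 199 and 178 CPM in pigSi3 neurons, 0 and 0 CPM in rde-4 neurons and 258 and 197 CPM in WT neurons, so that pigSi3 stood at 82.9% of WT. F56D6.16 had 30.4 and 22.2 CPM in pigSi3 neurons, above both rde-4 libraries and 3.68% of WT. F56D6.17 had 15.2 and 11.5 CPM in pigSi3 neurons, 6.10% of WT. H09G03.1 with 17.9 and 4.93 CPM and Y47H10A.5 with 15.2 and 6.98 CPM overlapped the rde-4 libraries, at 1.89 and 1.33% of WT. In all, 3 of the 6 loci tested lay wholly above rde-4, where 15.9% of all genes did. F45B8.5 had 0 counts in pigSi3 neurons, at least 19.6-fold below WT by the level of 3 counts. The pigSi3 share of WT thus ran from 0% for F45B8.5 to 82.9% for F58F9.1.

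By edgeR 2 of the 6 loci tested were called higher in pigSi3 neurons than in rde-4 neurons, where 0.464% of all genes were. One is F58F9.1, at least 151-fold higher in pigSi3 neurons than the level of 3 counts over the rde-4 libraries. Its 0 counts in rde-4 neurons are among the values that chose it, so no p is given for it. F56D6.16 rose by 1.81 ± 0.339 on the log2 scale (edgeR adjusted p = 0.00946). The log2 differences of the others were 1.33 ± 0.428 for F56D6.17 (edgeR adjusted p = 0.312), 0.90 ± 0.583 for H09G03.1 (edgeR adjusted p = 0.924) and -1.18 ± 0.397 for Y47H10A.5 (edgeR adjusted p = 0.382), whose 95% limits of -2.02 and -0.34 lie below 0 and which was called lower without rde-4 replicate 2 (log2 difference -1.501, edgeR adjusted p = 0.0440). The pigSi3 and WT groups share the rde-4 libraries in these comparisons. No neurons with pigEx9 or pigEx10 were analysed here, so the arrays and pigSi3 can be set side by side in whole animals only, and there across listing sets.

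**Figure D3:**
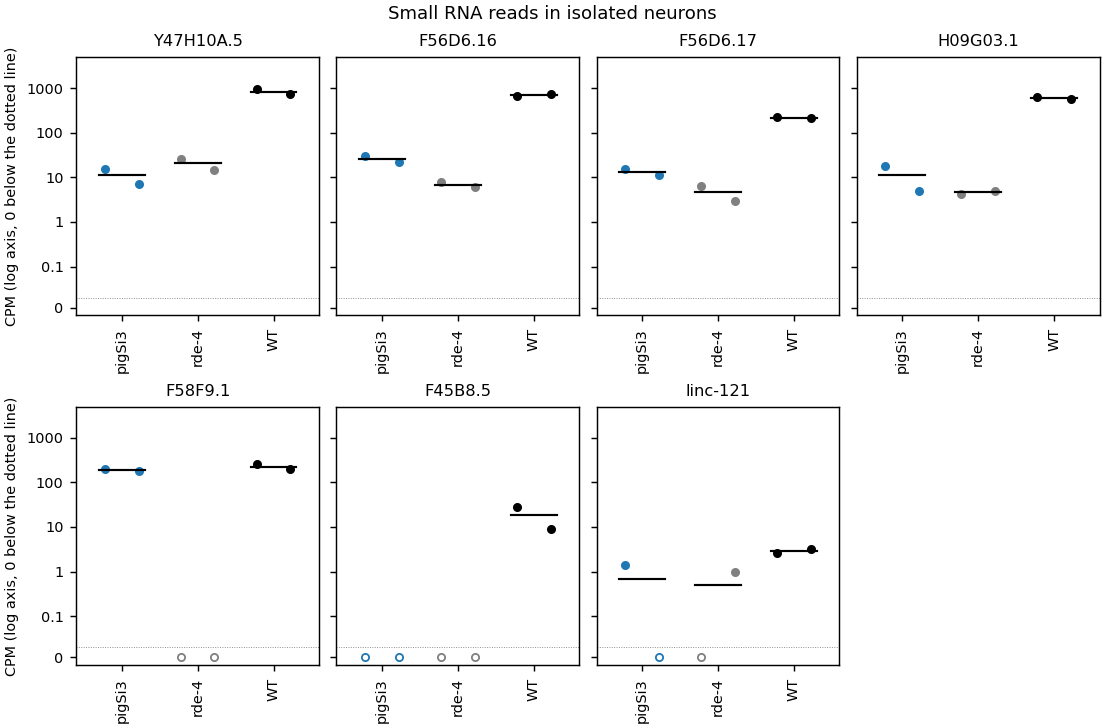
Small RNA reads of each locus in isolated neurons, in CPM on a log axis, with 1 point per library, open points below the dotted line for libraries at 0, and bars for the means of 2 libraries. F58F9.1 stands at 178 to 199 CPM in pigSi3, at 0 in rde-4 and at 197 to 258 CPM in WT, while the other loci stay at or under 30.4 CPM in pigSi3.

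The mRNA tables of neurons held 6 of the loci, and linc-121 was not analysed here. F58F9.1 mRNA had 48.6, 43.7, 59.8 and 35.8 CPM in pigSi3 neurons, 159, 161, 186 and 284 CPM in rde-4 neurons and 215, 33.2, 156 and 67.9 CPM in WT neurons. All pigSi3 libraries were below all rde-4 libraries, and the WT libraries spanned both. F58F9.1 was thus the locus with many small RNA reads in pigSi3 neurons, and its mRNA was at 46.97 ± 10.02 CPM there, against 197 ± 59.2 CPM in rde-4 neurons (SD, n = 4 each). By edgeR the log2 difference of pigSi3 from rde-4 was -2.07 ± 0.512 (unadjusted p = 0.00121, adjusted p = 0.234), in a comparison where 0% of all genes were called lower, and by DESeq2 its adjusted p was 0.00563. The 95% limits of the edgeR difference were -3.17 and -0.97. For WT over rde-4 the edgeR log2 difference was -0.74 ± 0.494, with 95% limits of -1.80 and 0.32, and did not pass. The 4 hypodermis markers summed to 133 to 194 CPM in pigSi3 neurons, against 213 to 361 CPM in rde-4 neurons, without overlap, while the sums of the other 6 marker lists overlapped between these groups. Across pigSi3, rde-4 and WT neurons no hypodermis marker was at 0 in every library of a group. WT replicates 1 and 3, the higher ones for F58F9.1, had the lowest neuronal marker sums of all 12 libraries, 10435 and 6211 CPM, and the highest muscle sums, 24890 and 17520 CPM. Their part in the result was not tested.

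**Figure D4:**
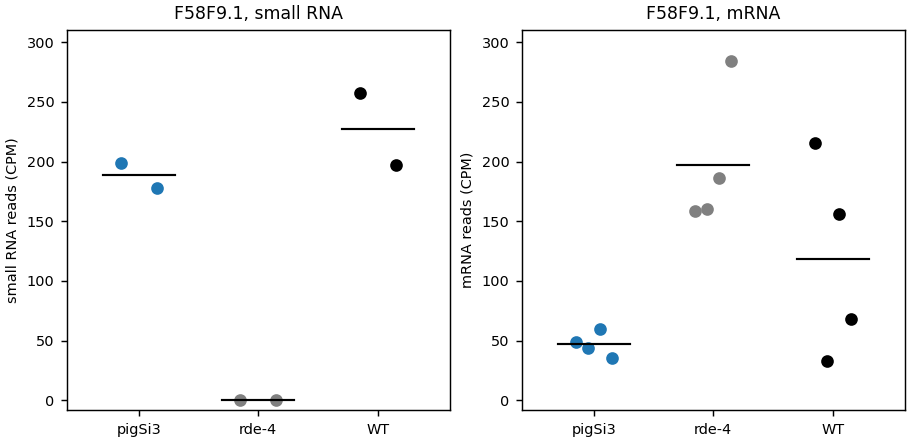
F58F9.1 in isolated neurons, as small RNA reads (left, 2 libraries a group) and mRNA reads (right, 4 libraries a group) in CPM on linear axes, with 1 point per library and bars for group means. The pigSi3 libraries are at 178 and 199 CPM in small RNA and at 35.8 to 59.8 CPM in mRNA, below all rde-4 mRNA libraries.

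For the other loci no neuronal mRNA difference passed either. F56D6.16 mRNA had 11.8, 30.6, 11.4 and 24.5 CPM in rde-4 neurons, against 9.87, 1.25, 3.01 and 0 CPM in WT neurons, without overlap, which also held for 3.71% of all genes in that direction. Its log2 difference of WT over rde-4 was -2.47 ± 0.874 (edgeR adjusted p = 0.193). In pigSi3 neurons F56D6.16 had 7.92, 16.1, 11.8 and 5.55 CPM, which overlapped rde-4. F56D6.17 had 6.06, 6.03, 3.34 and 2.87 CPM in pigSi3 neurons, against 8.54, 8.44, 7.004 and 9.48 CPM in rde-4 neurons, and H09G03.1 had 5.28, 7.38, 3.93 and 3.85 CPM in pigSi3 neurons, against 9.41, 11.101, 8.86 and 13.6 CPM in rde-4 neurons. With F58F9.1 these made 3 of the 5 loci tested whose pigSi3 libraries all lay below the rde-4 libraries, where 6.38% of all genes did. The edgeR log2 differences were -0.87 ± 0.544 for F56D6.17 (adjusted p = 0.665) and -1.07 ± 0.630 for H09G03.1 (adjusted p = 0.647). Of the 5 loci, 0 were called by edgeR in either comparison, where 0% of all genes were called lower and 0.0236% higher in pigSi3, and 0.252% lower and 0.181% higher in WT, and at an unadjusted p under 0.05 there was F58F9.1 in pigSi3 and F56D6.16 in WT. Y47H10A.5 mRNA, with at most 10 counts in a library, was not tested.

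Small RNA reads of all 7 loci were scarce in every gonad library, between 0 and 27 counts each, and no wild-type gonads were among the samples. Y47H10A.5 stood at 0.728 and 0.0786 CPM in pigSi3, at 0 and 1.46 CPM in pigSi3 F3, at 0 and 0.273 CPM in sid-1 rde-4 pigSi3, at 0.182 and 0.197 CPM in sid-1 rde-4, and at 0.0889, 2.06 and 0.186 CPM in rde-4. The Y47H10A.5 values of each group overlapped those of rde-4. H09G03.1 stood at 0.527 and 0.409 CPM in sid-1 rde-4 pigSi3, at 0.182 and 0.197 CPM in sid-1 rde-4, and at 0.267, 1.90 and 0.743 CPM in rde-4. It was thus wholly higher in sid-1 rde-4 pigSi3 than in sid-1 rde-4, where 20.3% of all genes were, and wholly lower in sid-1 rde-4 than in rde-4, where 24.9% were, in both cases as 1 of the 2 loci tested. H09G03.1 and Y47H10A.5 were the loci with enough reads for a test, and edgeR called 0 of 2 in each of 4 comparisons, where 0.512% of all genes were called higher in pigSi3, 0.130% in pigSi3 F3, 0.469% in sid-1 rde-4 pigSi3 over sid-1 rde-4, and 0.755% in sid-1 rde-4 over rde-4. DESeq2 also called 0. At an unadjusted p under 0.05 there was H09G03.1 in sid-1 rde-4 over rde-4 (log2 difference -2.28 ± 0.856, unadjusted p = 0.0225, edgeR adjusted p = 0.187). Of the 11 gonad libraries, 10 held at least 3780524 gene counts. In whole animals Y47H10A.5 was scarce as well, with 39 to 56 counts a library in pigSi3 and 1 to 24 in rde-4. Gonads of array carriers were not among the samples either, so a lack of reads particular to gonads cannot be read from these values.

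In gonad mRNA, transcripts of 2 loci were more abundant in pigSi3 F3 than in rde-4. F56D6.16 had 48.6, 43.4 and 32.3 CPM in pigSi3 F3 gonads, against 15.3, 12.6 and 7.42 CPM in rde-4 gonads, and H09G03.1 had 16.3, 12.9 and 15.6 CPM in pigSi3 F3, against 7.18, 8.26 and 4.05 CPM in rde-4. Both rose by edgeR, with log2 differences of 1.80 ± 0.364 (adjusted p = 0.00269) and 1.19 ± 0.264 (adjusted p = 0.00441), making 2 of the 5 loci tested where 13.6% of all genes were called higher. Of the 5, 4 lay wholly above rde-4, as did 22.9% of all genes. Germline markers summed to 3750 to 4706 CPM in these pigSi3 F3 libraries, against 7695 to 7805 CPM in rde-4, and the 4 oocyte markers to 3661 to 4507 CPM, against 9041 to 11156 CPM in rde-4, with no overlap. Their part in the result was not tested. In pigSi3 gonads, which carry the transgene, F56D6.16 had 27.7, 11.4 and 12.7 CPM and H09G03.1 had 6.61, 7.07 and 10.5 CPM, with edgeR log2 differences from rde-4 of 0.53 ± 0.359 (adjusted p = 0.895) and 0.29 ± 0.263 (adjusted p = 0.909). By edgeR 0 of 5 loci were called there, where 0.123% of all genes were called higher, and DESeq2 called 0 too, with 0 at an unadjusted p under 0.05.

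Y47H10A.5 mRNA varied widely among gonad libraries of 1 group. It had 0.166, 8.82 and 17.8 CPM in pigSi3 F3, 33.9, 23.5 and 0.540 CPM in sid-1 rde-4 pigSi3, and 51.2, 14.2 and 7.60 CPM in sid-1 rde-4, against 0.374, 0.0544 and 0.523 CPM in pigSi3 and 0.887, 0.516 and 0 CPM in rde-4. All sid-1 rde-4 libraries were thus above all rde-4 and pigSi3 libraries, and 2 of 3 libraries in each of the pigSi3 F3 and sid-1 rde-4 pigSi3 groups were as well. For pigSi3 F3 over rde-4 the edgeR log2 difference was 3.85 ± 1.43 (adjusted p = 0.0655), and it passed without F3 replicate 1 (adjusted p = 0.0271) and by DESeq2 (adjusted p = 0.0234). For sid-1 rde-4 over rde-4 it was 5.31 ± 1.46 (edgeR adjusted p = 0.215), with 0 of 5 loci called and only Y47H10A.5 at an unadjusted p under 0.05 (p = 0.0034), where 0.142% of all genes were called higher, and DESeq2 gave an adjusted p of 0.0263. For sid-1 rde-4 pigSi3 over sid-1 rde-4 it was -0.36 ± 1.14 (edgeR adjusted p = 0.916), again with 0 of 5 called, where 0.0852% of all genes were called higher, and H09G03.1 alone at an unadjusted p under 0.05 (p = 0.0459). H09G03.1 mRNA had 4.88, 7.65 and 5.94 CPM in sid-1 rde-4 pigSi3, against 9.44, 9.23 and 9.87 CPM in sid-1 rde-4, and F45B8.5 mRNA had 6.94, 6.84 and 5.13 CPM in sid-1 rde-4 pigSi3, against 7.17, 8.76 and 7.22 CPM in sid-1 rde-4. These 2 of 5 loci lay wholly below sid-1 rde-4, where 8.26% of all genes did. Both, with Y47H10A.5, made 3 of 5 loci wholly above in sid-1 rde-4 over rde-4, where 6.62% of all genes were. F58F9.1, abundant in neuronal mRNA, had at most 9 counts in a gonad library.

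Growth at 25 °C went with fewer reads of most loci in N2. F56D6.16 had 77.1, 70.5 and 30.6 CPM in N2 at 25 °C, against 639, 493 and 558 CPM at 20 °C. F56D6.17 had 86.6, 66.7 and 43.1 CPM at 25 °C, against 329, 296 and 302 CPM at 20 °C, and H09G03.1 had 190.1, 171 and 79.8 CPM at 25 °C, against 372, 322 and 342 CPM at 20 °C. F45B8.5 had 0 counts in all 3 libraries at 25 °C, so it was at least 272-fold higher at 20 °C than the level of 3 counts over those libraries. F58F9.1 had 0.328, 1.27 and 0.844 CPM at 25 °C, against 3.05, 1.85 and 3.24 CPM at 20 °C. These 5 of 7 loci lay wholly below their values at 20 °C, where 24.2% of all genes did. Y47H10A.5 with 635, 973 and 488 CPM at 25 °C and linc-121 with 12.23, 20.8 and 6.12 CPM at 25 °C overlapped their values at 20 °C.

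By edgeR 5 of 7 loci fell in N2 at 25 °C, where 17.8% of all genes did, and 0 rose, where 19.8% did. The log2 differences were -3.23 ± 0.353 for F56D6.16 (edgeR adjusted p = 3.17e-05), -2.23 ± 0.295 for F56D6.17 (edgeR adjusted p = 0.000117), -1.71 ± 0.420 for F58F9.1 (edgeR adjusted p = 0.00662) and -1.22 ± 0.341 for H09G03.1 (edgeR adjusted p = 0.0147). F45B8.5, counted among the 5, gets no p. It passed the count filter only through N2 at 20 °C, the group that chose it as high. For Y47H10A.5 the difference was -0.49 with 95% limits of -1.25 and 0.27 (edgeR adjusted p = 0.293), and for linc-121 it was 0.03 with limits of -1.01 and 1.07 (edgeR adjusted p = 0.965). The N2 libraries at 20 °C helped to choose the loci as high ones, which favours lower values elsewhere. The libraries of each temperature are also listed apart from those of the other, so temperature and listing set cannot be told apart.

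In rde-4 mutants 3 loci had more reads at 25 °C. H09G03.1 had 17.1, 12.4 and 5.38 CPM at 25 °C, against 0.299, 0.384 and 0.553 CPM in the first 3 rde-4 replicates at 20 °C. F58F9.1 had 5.47, 4.84 and 5.21 CPM at 25 °C, against 0.349, 0.604 and 0.311 CPM, and F56D6.16 had 0.684, 1.01 and 0.174 CPM, or 2, 13 and 1 counts, against 0, 0.165 and 0.0345 CPM at 20 °C. All 3 lay wholly above these replicates, where 29.2% of all genes did. Replicate 3 of F56D6.16 at 25 °C lay within the range of 0 to 0.498 CPM of all 11 rde-4 libraries at 20 °C. By edgeR these 3 of 7 loci rose, where 24.0% of all genes did. On the log2 scale the rise was 4.68 ± 0.510 for H09G03.1 (edgeR adjusted p = 2.30e-05), 3.59 ± 0.427 for F58F9.1 (edgeR adjusted p = 3.00e-05) and 3.39 ± 1.02 for F56D6.16. No p is given here for F56D6.16 or F45B8.5, which passed the count filter of this fit only through N2 libraries. The F56D6.16 call was lost without rde-4 replicate 2 at 25 °C. Without replicate 3 at 25 °C the count was 5, with Y47H10A.5 (log2 difference 1.26, edgeR adjusted p = 0.0469) and F45B8.5 (log2 difference 3.03). The rde-4 libraries at 20 °C helped to choose the loci as low ones, and here too temperature and listing set cannot be told apart.

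At 25 °C the loci therefore differed in how far rde-4 stood below N2. As a description, the rde-4 mean was 0.239% of the N2 mean for Y47H10A.5, 0.278% for F56D6.17, 1.05% for F56D6.16 and 7.92% for H09G03.1 at 25 °C, where the same shares at 20 °C were 0.110, 0.0962, 0.0269 and 0.165%. F58F9.1 averaged 5.17 CPM in rde-4 and 0.814 CPM in N2 at 25 °C, so it was higher in the mutant there. linc-121 had 0 counts in rde-4 at 25 °C and was at least 93.4-fold higher in N2 than the level of 3 counts. F45B8.5 had 5 counts in 1 rde-4 library at 25 °C and none in N2. Of the genes next to the loci, rrf-2, beside Y47H10A.5, rose by 1.89 ± 0.240 in rde-4 (edgeR adjusted p = 4.91e-05) and by 0.97 ± 0.235 in N2 (edgeR adjusted p = 0.00594) on the log2 scale, while Y47H10A.5 passed in neither. The gene frm-8, beside H09G03.1, also rose in rde-4 at 25 °C, by 2.75 ± 0.403 on the log2 scale (edgeR adjusted p = 0.000215), and in N2 it rose by 2.11 ± 0.430 (edgeR adjusted p = 0.00259). In N2 alone, rgs-11 and F20D1.1, beside F45B8.5, rose by 0.83 ± 0.226 (edgeR adjusted p = 0.0119) and 1.27 ± 0.404 (edgeR adjusted p = 0.0256). F58F9.7, beside F58F9.1, fell in N2 by 1.19 ± 0.413 (edgeR adjusted p = 0.0374) and was not called in rde-4.

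**Figure D5:**
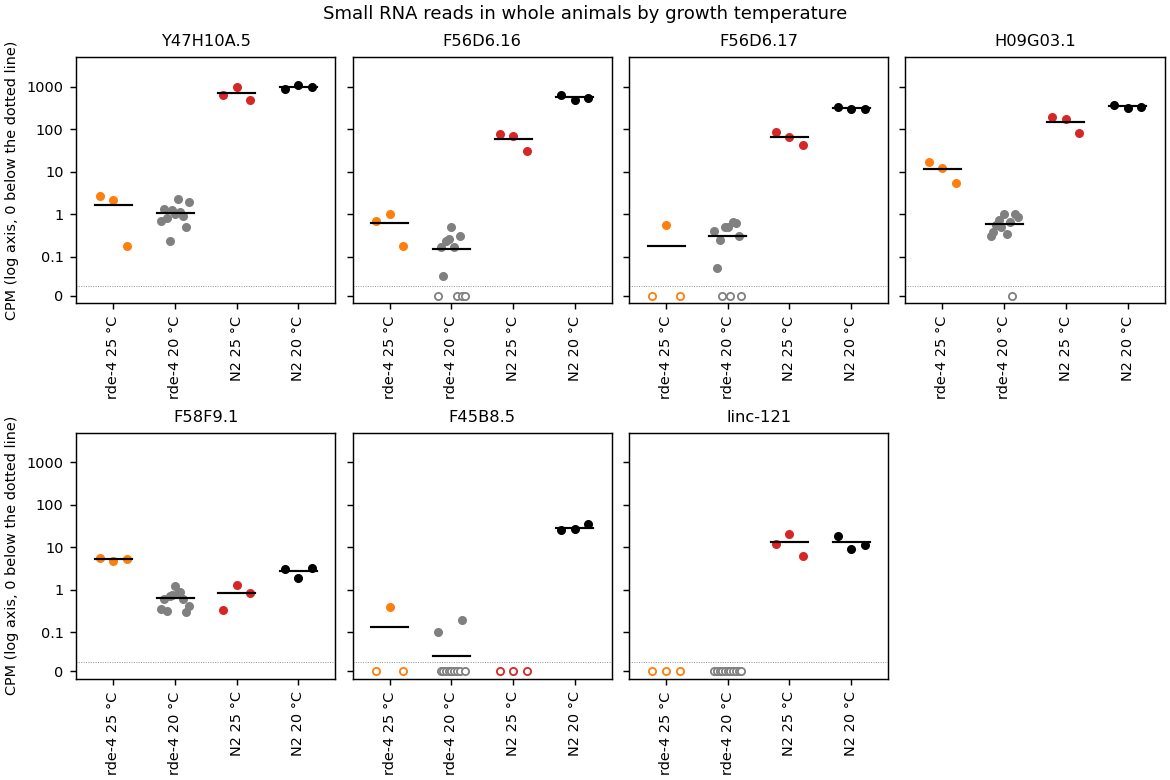
Small RNA reads of each locus in whole animals by strain and growth temperature, in CPM on a log axis, with 1 point per library, open points below the dotted line for libraries at 0, and bars for group means. F56D6.16 is at 30.6 to 77.1 CPM in N2 at 25 °C and at 493 to 639 CPM in N2 at 20 °C, F45B8.5 is at 0 in N2 at 25 °C, and H09G03.1 reaches 5.38 to 17.1 CPM in rde-4 at 25 °C.

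Among themselves the loci moved in groups. Over the 12 whole-animal groups, Pearson correlations of log2(mean CPM + 1) were 0.976 to 0.983 among Y47H10A.5, F56D6.16 and F56D6.17, which lie on 2 chromosomes, and 0.106 to 0.847 for all other pairs. These groups share libraries with the choice of the loci, so the values only describe them. The ratio of Y47H10A.5 to F56D6.16 reads, taken within a library, was 1.77 to 2.08 in pigEx9 P0, 2.84 to 4.47 in pigEx10 P0 and 1.36 to 2.24 in N2 at 20 °C. It was 8.24 to 15.9 in N2 at 25 °C and 0.976 to 1.37 in WT neurons. For F56D6.16 over its neighbour F56D6.17 the ratio was 3.06 to 4.69 in pigEx9 P0, 2.23 to 2.46 in pigEx10 P0, 0.709 to 1.06 in N2 at 25 °C and 1.67 to 1.94 in N2 at 20 °C. In WT neurons this ratio was 3.04 and 3.51, so a wild-type sample overlapped the range of pigEx9 P0. The reads of adjacent pseudogenes thus shifted against each other between groups, by more than the spread within a group for N2 at 25 °C, pigEx10 P0 and pigEx9 P0 against N2 at 20 °C.

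The non-members whose profile over the 12 groups was most like the mean of the loci were K02E2.6, C36A4.11, K02E2.11, C44B11.6 and K06B9.6, with correlations of 0.951 to 0.968 among 8330 genes compared. Of these, K02E2.6 averaged 489 CPM in pigEx9 P0, 15.2 CPM in rde-4 and 1610 CPM in N2, so it came back to a smaller share of N2 than Y47H10A.5 did and kept more reads in the mutant. A list of 22 candidate ERGO-1 targets that holds none of the loci, chosen with earlier results of these data known, was read beside them. In pigEx10 P0, 18 of its 22 genes tested rose and 0 fell, where 1.28% of all genes rose and 0.515% fell (median log2 difference 5.72, against -0.0041 for all genes). In pigEx9 P0 14 rose and 1 fell of 20, where 1.84% of all genes rose and 4.31% fell (median 2.23, against 0.0036 for all genes). Among them C44B11.6 rose by 6.53 ± 0.187 in pigEx10 P0 and by 5.33 ± 0.225 in pigEx9 P0, and W04B5.1 rose by 9.78 ± 0.175 in pigEx10 P0. In pigSi3 whole animals 7 of 22 rose and 0 fell (median 0.40, against 0.015), led by C36A4.11 with 3.63 ± 0.240, where 1.92% of all genes rose and 3.94% fell.

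In neurons 20 of the 22 candidates were higher in WT than in rde-4 and 0 were lower, where 1.47% of all genes were higher and 1.87% lower (median log2 difference 6.06, against -0.0013 for all genes). In pigSi3 over rde-4, 5 of the 22 candidates rose, where 0.464% of all genes did (median 0.47, against -0.0028). Like F58F9.1, some of them were far above rde-4 in pigSi3 neurons: W04B5.2 by 5.80 ± 0.235 (edgeR adjusted p = 7.83e-11), K02E2.6 by 5.66 ± 0.383 (edgeR adjusted p = 0.000590) and C44B11.6 by 6.85 ± 0.467 (edgeR adjusted p = 0.00337) on the log2 scale. Of 35 genes of the siRNA machinery, among them dcr-1, rrf-3 and ergo-1, 28 were tested in the array fits and rde-4 was the 1 called in pigEx9 P0, pigEx10 P0 and pigEx9 F1. Of all genes, 1.84, 1.28 and 0.0360% were called higher there. In N2 at 25 °C 5 of the 22 candidates were higher and 7 lower, and of 29 machinery genes 4 were higher and 5 lower. Of all genes 19.8% were higher and 17.8% lower there, so nothing is read from these counts.

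Of the genes beside or overlapping the loci that were tested, none was called by edgeR in pigEx9 P0 or pigEx10 P0 over rde-4. The gene rrf-2, beside Y47H10A.5 and coding for a polymerase of the family that makes siRNAs, averaged 212 ± 53.2 CPM in pigEx9 P0 (SD, n = 6), 224 ± 15.7 CPM in pigEx10 P0 (n = 3), 234 ± 32.2 CPM in rde-4 (n = 11) and 174 ± 16.4 CPM in N2 (n = 3). In edgeR its log2 difference from rde-4 was -0.22 ± 0.111 in pigEx9 P0 (adjusted p = 0.293) and -0.08 ± 0.0908 in pigEx10 P0 (adjusted p = 0.763). The other genes beside Y47H10A.5, F56D6.16 and F56D6.17 averaged at most 0.144 CPM in these groups. The gene frm-8, beside H09G03.1, averaged 21.6 ± 6.67 CPM in pigEx9 P0, 16.0 ± 3.67 CPM in pigEx10 P0, 34.5 ± 30.4 CPM in rde-4 and 4.36 ± 0.730 CPM in N2 (SD). In edgeR its log2 difference from rde-4 was -1.30 ± 0.497 in pigEx9 P0 (adjusted p = 0.168) and 0.82 ± 0.247 in pigEx10 P0 (adjusted p = 0.169). Strand use in counting is not known, and F58F9.1 overlaps T13A10.2, F45B8.5 overlaps F20D1.22 and linc-121 overlaps another gene named after the same clone, so reads of these 3 loci are uncertain. In pigSi3 whole animals, where F58F9.1 rose, T13A10.2 fell by 1.498 ± 0.289 on the log2 scale (edgeR adjusted p = 0.0126), and in neurons T13A10.2 averaged 2.33 CPM in pigSi3, 0.714 CPM in rde-4 and 1.61 CPM in WT.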

How the data were processed

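Small RNA was sequenced from whole animals, isolated neurons and gonads, and mRNA from neurons and gonads, in 91 libraries. The authors deposited raw read counts per gene for each library, counted with HTSeq on genome build ce10 after adapter trimming with cutadapt and a FastQC check, per the submitters' processing notes, which also name DESeq2 and give no versions. TRIZOL was used for RNA, NEBNext or TruSeq kits for small RNA libraries and Nextera XT for mRNA libraries, per the labels' protocols. Which aligner, annotation, strand setting and small RNA kit lay behind each library was not given in the sources used here. Rows that name no gene were left out of library sizes and tests. Reads without a gene were 22.2 to 56.4% of the counted and uncounted reads in whole animals, 61.4 to 71.4% in neurons and 17.3 to 22.9% in gonads for small RNA, and 47.5 to 54.2% for mRNA.

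Counts were fitted across all genes with edgeR 4.0.16 in R 4.3.3 (quasi-likelihood with robust dispersion, TMM scaling, filterByExpr with a minimum count of 10) and p-values adjusted by Benjamini-Hochberg over all genes, with a threshold of 0.05. Shares of all genes at an unadjusted p under 0.05 were not computed, so loci named at that level are a description. A standard error is the log2 difference divided by the square root of F, and 95% limits use the fit's degrees of freedom. CPM values share 1 TMM scale per tissue and assay. Tables were read with pandas 2.3.3 in Python 3.11.15 and drawn with matplotlib 3.10.9. The test was run on simulated counts first for small RNA of pigSi3 whole animals, pigEx10 P0, WT neurons and pigSi3 gonads, each against rde-4. Other comparisons were not simulated. Where a group had no reads, a fold is a bound against 3 counts over the group, which covers counting error only.

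Whole-animal libraries fall into 6 sets by the order in which the records are listed; the labels name no batch. Each transgene group was compared with the rde-4 libraries of its own set, with the set as a term for pigEx9, and pigSi3 F3, whose set has no control, with all 11 rde-4 libraries. No 2 libraries held identical counts. Replicate numbers were taken as a possible pairing of pigSi3 with rde-4 whole animals (correlations of 0.120 to 0.305 between deviations of same-numbered libraries) and of N2 at 25 °C with N2 at 20 °C (0.255 to 0.423), and of no other comparison. The edgeR p-values given above come from fits without this pairing. A replicate block was run as an alternative only, and in pigSi3 whole animals it called 1554 genes, against 750 without it.

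The members and lists were chosen with earlier results of these data known, and N2 against rde-4 in whole animals is not tested. Every member is described, neighbours come from the annotation, and the 5 genes of most similar profile were named by correlation. Alternatives were DESeq2 1.42.0, DESeq2 size factors, library totals, no count filter, the replicate block, other rde-4 libraries, single sets and leaving out each replicate. Sequences of the loci were not used here.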

Additional observations from a re-analysis of the deposited data

Results flagged for a closer look

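Moves with temperature ran in opposite directions in the strains for 3 loci, with every library of each strain on its own side of the values at 20 °C, taken for rde-4 from replicates 1 to 3. As log2 differences of 25 °C from 20 °C, F56D6.16 was at 3.39 in rde-4 and -3.23 in N2, H09G03.1 at 4.68 in rde-4 and -1.22 in N2, and F58F9.1 at 3.59 in rde-4 and -1.71 in N2. The difference between the strains was not tested, and F56D6.16 entered the fit only through its N2 reads. The libraries at 20 °C had helped to choose the loci as low in rde-4 and high in N2, and temperature and listing set cannot be told apart.

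Single samples far from the rest of their group were looked for in the 4 groups of 4 to 10 libraries, for the loci and rde-4, which made 29 combinations of gene and group. There were 2, where chance gives about 1 in 20. Y47H10A.5 mRNA stood at 0.179 CPM in WT neuron replicate 2 and at 0 in the other WT replicates, which is 2 counts. F45B8.5 mRNA stood at 1.97 CPM in pigSi3 neuron replicate 4 and at 2.33 to 2.34 CPM in the others.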

How the results depend on the processing

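Of 44 results for single loci, 29 kept their direction and their side of the threshold under every alternative run. Of 540 alternative values, 509 did so, 18 lost a call, 13 gained 1 and 0 turned round. Counts of loci called moved by more than 1.5 times, or to or from 0, in 7 comparisons, and the cause was not tested. In pigSi3 whole animals the count was 4, with 2 to 4 when 1 replicate was left out and 0 against rde-4 replicates 4 to 11 alone. In pigEx9 F1 it was 0, with 2 by DESeq2 and 2 with all 11 rde-4 libraries. In pigEx9 F3 it was 0, with 1 by DESeq2 and 2 with all 11 rde-4 libraries. In rde-4 at 25 °C it was 3, with 2 to 5 when 1 replicate was left out. In neuron mRNA it was 0, with 1 by DESeq2 for pigSi3 (F58F9.1) and 1 for WT without WT replicates 2 and 4 (H09G03.1), an alternative chosen after seeing the data. In sid-1 rde-4 gonad mRNA it was 0, with 1 by DESeq2 (Y47H10A.5). Smaller moves came when 1 replicate was left out, with 4 to 5 in pigEx9 P0, 4 to 5 in pigEx10 P0, 2 to 3 in pigSi3 neurons, 5 to 6 in WT neurons and 2 to 3 in pigSi3 F3 gonad mRNA.

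With the replicate block the count of loci called was 4 in pigSi3 whole animals, 5 in N2 at 25 °C, 3 in rde-4 at 25 °C, 6 in WT neurons, 2 in pigSi3 neurons, 2 in pigSi3 F3 gonad mRNA and 0 elsewhere, so the block changed no count. No paired analysis was possible for the array groups and pigSi3 F3 whole animals because within a listing set they share fewer than 2 replicate numbers with the rde-4 libraries, and the set of pigSi3 F3 has no control.

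Counts over all genes moved by more than 1.5 times in 19 of 22 comparisons. For pigSi3 whole animals 750 genes were called, with 369 to 1554 under alternatives, the most with the replicate block. For pigEx9 the counts were 684 (165 to 1176) in P0, 12 (0 to 273) in F1 and 3 (1 to 180) in F3, and for pigEx10 they were 202 (123 to 664) in P0, 40 (3 to 143) in F1 and 40 (2 to 125) in F3. For neurons they were 72 (56 to 135) in pigSi3 and 252 (142 to 432) in WT, and in neuron mRNA 3 (2 to 114) and 55 (14 to 3740). In gonads they were 228 (33 to 515) for pigSi3, 19 (0 to 3997) for pigSi3 F3, 66 (0 to 157) for sid-1 rde-4 pigSi3 and 381 (39 to 653) for sid-1 rde-4, in gonad mRNA 51 (21 to 110) for pigSi3, 13 (0 to 134) for sid-1 rde-4 pigSi3 and 41 (16 to 127) for sid-1 rde-4, and in pigSi3 F3 whole animals 2 (1 to 221). Few reads limit the precision for linc-121 and F45B8.5 in the arrays and for all loci in gonad small RNA, and every F1 value of pigEx9 rests on 2 libraries.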
